A study of Mus musculus with 6 samples.

Results

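The genes described here encode 9 proteins of the extracellular matrix, most of them proteoglycans: Lum, Dcn, Bgn, Fmod, Ogn, Prg4, Mgp, Vcan and Fbln7. They were taken as the genes with a probe set annotated to that symbol alone, 9 of 18193 named genes and 25 of 45101 probe sets. Where a gene had several, the brightest on average over the 6 arrays was used and the others served as a check. Fbln7, Prg4, Mgp and Lum were chosen on their differences between these same arrays, and the whole set was named with results of these data known. All values below therefore describe the arrays and are not tests.

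RNA came from 3T3-L1 cells, a mouse preadipocyte line that matures into fat cells in culture. All groups had been induced with insulin, 3-isobutyl-1-methylxanthine and dexamethasone, and were then treated for 5 days in medium with insulin. In the first experiment the cells received ritonavir at 20 µM, an HIV protease inhibitor, tenofovir at 1 µM, a reverse transcriptase inhibitor, or ethanol at 0.1% as vehicle. Cells of a second experiment all received 20 µM ritonavir, plus DMSO at 0.1%, c9,t11-CLA at 100 µM or t10,c12-CLA at 100 µM. CLA is conjugated linoleic acid, and the isomers differ in the place and the cis or trans form of their double bonds. A DMSO dose is recorded only for the group without CLA, and the sources used here do not say whether the second experiment held ethanol. RNA of 4 replicate experiments was pooled per group and measured on 1 array. No spread between replicates, error or p-value can therefore be given.

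Values are on the log2 scale, so a difference of 1 is 2-fold. Medians of the 6 arrays lay between 6.54 and 6.56. A gene was called detected if it reached the median of the whole table, 6.55, on at least 1 array, as 12385 genes did. The nearest measure of how much arrays differ is the pair of tenofovir and ethanol, where the robust SD of all differences was 0.113 and the central 95% lay between -0.26 and 0.26. That pair can include an effect of tenofovir, so this range is a yardstick and not an error. Both its arrays are of the first experiment, so it holds no difference between experiments. Of 9 mature adipocyte markers all reached the level on every array, with Adipoq, the gene of adiponectin, at 14.79 on the ethanol array and 10.18 on the ritonavir array. Of 6 endothelial markers 1 was detected, Kdr, and of 8 macrophage markers 4 were: Cd68, Csf1r and Cd14 on all 6 arrays and Lyz2 on 2, while Adgre1, Ptprc, Mrc1 and Itgam lay under the level on every array.

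Matrix proteoglycans are core proteins that carry long sulphated sugar chains. The small leucine-rich proteoglycans, such as decorin and lumican, bind collagen and control how fibrils assemble, while versican is a large proteoglycan that binds hyaluronan and keeps the matrix hydrated. Preadipocytes are fibroblast-like cells with a collagen-rich matrix, which is remodelled as they round up and fill with lipid.

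On the ritonavir array 3 of the 8 detected members were at least 2-fold higher than on the ethanol array, namely Fbln7, Ogn and Mgp, and 1 was at least 2-fold lower, Prg4. Over all detected genes 4.56% were that much higher and 6.39% lower. The members had a median difference of 0.50, against 0.00 for all genes. None of the 8 was 2-fold apart between tenofovir and ethanol, where 0% of all genes were. On the array of ritonavir with DMSO 6 members were at least 2-fold lower than on the array of ritonavir alone, namely Fbln7, Mgp, Ogn, Dcn, Lum and Vcan, and Prg4 was that much higher, though not with values raised to the detection level. With the mean of all probe sets, which adds dim ones, the calls of Dcn, at -0.96, and Vcan, at -0.65, were lost. The other detected Vcan probe sets gave -1.34 and -1.17. Of all genes 2.08% were 2-fold lower and 2.83% higher in that comparison. On the DMSO array 2 members were at least 2-fold lower than on the ethanol array, Lum and Dcn, and 1 was higher, Fbln7, against 2.99% and 1.52% of all genes. Fbln7 lost its call with raised values, at 0.66, and Dcn with the mean of all its probe sets, at -0.64. These comparisons share the ethanol, ritonavir or DMSO array and are not independent of each other. Since members were picked with such values known, nothing is read from these shares.

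In either direction 10.9% of genes were 2-fold apart between ritonavir and ethanol, 4.91% between ritonavir with DMSO and ritonavir, and 4.51% between ritonavir with DMSO and ethanol. With c9,t11-CLA 0.00807% of genes were 2-fold from DMSO, all lower, and with t10,c12-CLA 1.83% were. The isomers were 2-fold apart at 2.48% of genes. With a 3-fold threshold 3 members, Fbln7, Mgp and Ogn, were apart between ritonavir with DMSO and ritonavir, where 1.51% of genes were, and Lum alone between ritonavir with DMSO and ethanol, where 1.38% were. With a 1.5-fold threshold 6 members were apart in the latter (14.1% of genes), Lum alone with c9,t11-CLA (0.17%), and Prg4, Vcan and Ogn with t10,c12-CLA against DMSO (7.07%). Between the isomers Prg4, Vcan and Lum were 1.5-fold apart (8.09%).

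**Figure D1:**
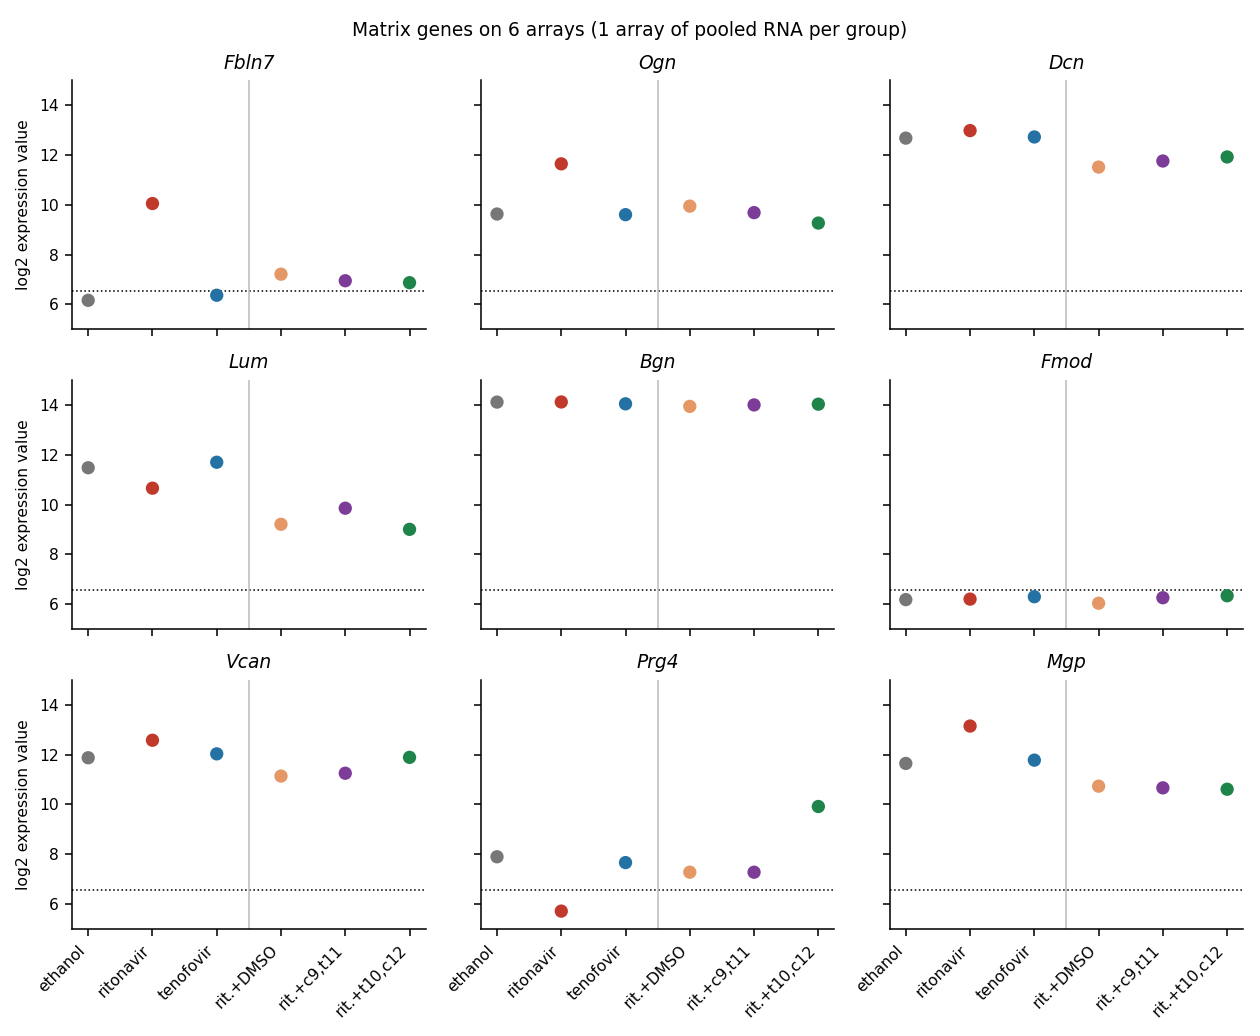
Log2 expression value (y axis) of each of the 9 genes on the 6 arrays (x axis), with arrays of the first experiment left and of the second right of the grey line. The dotted line is the detection level of 6.55, each point is 1 array of pooled RNA, and Fbln7 at 10.05 on the ritonavir array stands far above its value of 6.17 on the ethanol array.

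Fbln7 encodes fibulin-7, a secreted glycoprotein of the fibulin family with cell adhesion activity. Its value (probe set 1460412_at) was 6.17 with ethanol, 6.37 with tenofovir and 10.05 with ritonavir, and 7.21, 6.95 and 6.87 on the arrays of ritonavir with DMSO, c9,t11-CLA and t10,c12-CLA. The ritonavir array was thus highest, the 3 other arrays with ritonavir lay between, and both arrays without ritonavir lay under the detection level. The difference from ethanol, 3.89, ranked 2 of 12385 from the top. With values raised to the detection level it was 3.50, again at rank 2, so Fbln7 was at least 11.3-fold higher on this convention. With DMSO the gene differed from ritonavir alone by -2.84, rank 4 of 12385 from the bottom, and from ethanol by 1.05, or 0.66 with raised values. The CLA arrays differed from DMSO by -0.26 for c9,t11-CLA and -0.34 for t10,c12-CLA.

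Among 14 detected genes of other fibulins and elastic fibre proteins 1 was at least 2-fold higher with ritonavir than with ethanol and 1 lower, with a median of -0.16. The higher gene was Fbln1, which encodes fibulin-1, a fibulin of basement membranes and elastic fibres. Its values were 7.98 with ethanol, 9.70 with ritonavir, 8.15 with tenofovir, 7.34 with DMSO, 7.69 with c9,t11-CLA and 7.78 with t10,c12-CLA, so that it peaked on the same array as Fbln7 but was lowest on the array with DMSO. Fbln2, another fibulin, differed from ethanol by 0.58 on the ritonavir array and by -0.55 with DMSO. Fbln5, which helps elastin to assemble, differed by -0.25 and -0.26, and Emilin2, an elastin-associated glycoprotein, by -2.48 and -2.05. On the DMSO array Fbln1 and Fbln2 were the 2 members of the list at least 2-fold lower than with ritonavir alone, at -2.36 and -1.13. Of the 14, 11 were lower, with a median of -0.12 against 0.01 for all genes. With t10,c12-CLA none of the 14 was 2-fold from DMSO, and Ltbp2, a protein of microfibrils, differed most at -0.79. With c9,t11-CLA and with tenofovir none was 2-fold from its control either, with Fbln1 at 0.35 and the microfibril gene Mfap4 at 0.50, the latter under the level on the ethanol array. The count against ethanol on the DMSO array was 2 lower, Emilin2 and Mfap4. Mfap4 was under the level on both arrays, at 6.47 and 5.42, and with raised values the count was 1.

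Ogn encodes osteoglycin, also called mimecan, a small leucine-rich proteoglycan first known from bone. Its value (1419663_at) was 9.63 with ethanol, 9.60 with tenofovir and 11.65 with ritonavir. In the second experiment it was 9.95 with DMSO, 9.69 with c9,t11-CLA and 9.27 with t10,c12-CLA. The array of ritonavir alone was highest and that of t10,c12-CLA lowest. The ritonavir and ethanol difference was 2.01, a 4.04-fold higher value, and the second probe set of the gene, 1419662_at, gave 2.20. With DMSO the gene differed by -1.70 from ritonavir alone, -1.94 with the second probe set, and by 0.32 from ethanol. Against DMSO it differed by -0.26 with c9,t11-CLA and by -0.68 with t10,c12-CLA.

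RefSeq promoter windows, 250 bases before to 50 after a start site on build GRCm38.p6, were at hand for 5 of the 9 members: Fbln7, Ogn, Vcan, Bgn and Fmod. Those of Fbln7 and Ogn are shown because these genes differed most upward with ritonavir, and that of Bgn because its level hardly moved. They lie at chr2:128863682-128863981, chr13:49607765-49608064 and chrX:73483351-73483650, all on the plus strand, and capitals mark TATAAA on either strand.
Fbln7: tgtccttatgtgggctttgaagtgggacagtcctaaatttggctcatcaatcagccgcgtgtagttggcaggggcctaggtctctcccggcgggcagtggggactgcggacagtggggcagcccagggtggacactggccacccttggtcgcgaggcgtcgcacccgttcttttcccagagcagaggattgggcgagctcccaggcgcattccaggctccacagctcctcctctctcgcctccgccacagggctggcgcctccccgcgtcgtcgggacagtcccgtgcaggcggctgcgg
Ogn: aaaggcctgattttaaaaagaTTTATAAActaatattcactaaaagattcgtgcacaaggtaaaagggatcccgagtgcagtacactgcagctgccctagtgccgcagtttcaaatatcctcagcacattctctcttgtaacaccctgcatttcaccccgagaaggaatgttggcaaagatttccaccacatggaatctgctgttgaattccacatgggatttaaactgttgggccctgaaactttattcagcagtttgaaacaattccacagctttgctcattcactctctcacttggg
Bgn: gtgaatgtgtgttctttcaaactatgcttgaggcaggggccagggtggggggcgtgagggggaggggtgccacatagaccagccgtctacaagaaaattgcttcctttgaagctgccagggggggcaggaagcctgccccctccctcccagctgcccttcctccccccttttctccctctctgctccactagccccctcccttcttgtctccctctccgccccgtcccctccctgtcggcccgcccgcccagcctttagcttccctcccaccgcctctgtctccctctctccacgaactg
The Fbln7 and Bgn windows were rich in G and C, at 66.0% and 63.7% of bases, and the Ogn window was poorer at 42.3%, against a median of 52.7% over all windows of the table. Searched were TATAAA on both strands and the CArG box, the site of serum response factor. TATAAA occurred only in the Ogn window, as 2 overlapping matches whose first bases lie at -229 and -227 from the start site, while 13.6% of 32851 windows held it. No CArG box occurred in the 5 windows, and 1.63% of all windows held it. The absence says only that these letters are not within these bases.

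Dcn encodes decorin, which coats collagen fibrils and binds TGF-beta. Its value (1449368_at) was 12.68 with ethanol, 12.98 with ritonavir and 12.72 with tenofovir, and 11.51 with DMSO, 11.76 with c9,t11-CLA and 11.92 with t10,c12-CLA. All arrays of the second experiment were lower than all arrays of the first. The array with DMSO differed from ritonavir alone by -1.47, a 2.76-fold lower value, and from ethanol by -1.16, whereas ritonavir alone differed from ethanol by only 0.30. Both isomers lay above DMSO, by 0.24 for c9,t11-CLA and by 0.41 for t10,c12-CLA. The second Dcn probe set lay under the detection level on all arrays and gives no check.

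Lum encodes lumican, a keratan sulphate proteoglycan that sets the spacing and width of collagen fibrils. Its value (1423607_at) was 11.48 with ethanol, 10.66 with ritonavir and 11.70 with tenofovir, and 9.21 with DMSO, 9.85 with c9,t11-CLA and 9.01 with t10,c12-CLA. Every array with ritonavir was lower than both arrays without it, and the second experiment was lower again. The differences from ethanol were -0.82 with ritonavir alone and -2.27 with ritonavir and DMSO, the latter a 4.82-fold lower value at rank 43 of 12385 from the bottom. Lum was the member with the largest value for c9,t11-CLA, 0.65 above DMSO, rank 3 of 12385 from the top. That is 1.56-fold, in a comparison where 0.17% of genes were at least 1.5-fold apart in either direction. Since Lum was picked for its differences between these arrays, nothing is read from this rank. With t10,c12-CLA Lum differed from DMSO by -0.20, and the isomers differed by -0.85.

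Bgn encodes biglycan, the closest relative of decorin. Its value (1416405_at) lay between 13.94 on the DMSO array and 14.12 on the ritonavir array, a range of 0.18, the smallest of the 8 detected members. Ritonavir and ethanol differed by 0.01 and ritonavir with DMSO and ethanol by -0.17. These values are near the upper end of the table at 15.01, and 99.7% of all table values were at or under the highest of them. The other Bgn probe sets, also high, gave -0.04 and 0.00 for ritonavir against ethanol, -0.30 and -0.37 for ritonavir with DMSO against ethanol, and 0.30 and 0.38 for t10,c12-CLA against DMSO.

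Fmod, the gene of fibromodulin, a collagen-binding relative of lumican, was not detected. Its 6 probe sets stayed under the level on every array, and the one used lay between 6.04 and 6.34. Its differences, which were at most 0.30 in size among the comparisons with a control, are not relied on.

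**Figure D2:**
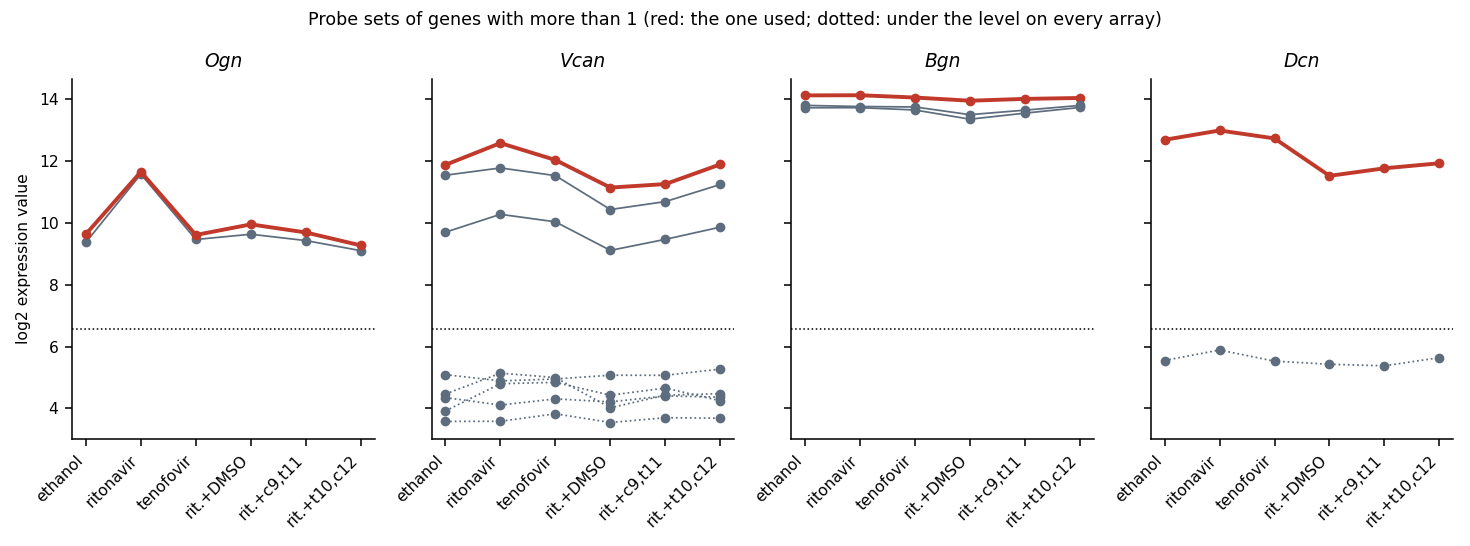
Log2 expression value (y axis) of every probe set of Ogn, Vcan, Bgn and Dcn on the 6 arrays (x axis); lines only join the values of 1 probe set, red is the probe set used and dotted black the detection level. The 2 Ogn probe sets both peak on the ritonavir array, and the 3 detected Vcan probe sets are all lowest on the DMSO array.

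Small leucine-rich proteoglycan genes lie in clusters, and in the RefSeq annotation Dcn, Lum, Kera and Epyc follow each other, as do Ecm2, Aspn, Omd and Ogn, and Optc, Prelp and Fmod. Between ritonavir and ethanol the detected neighbours Dcn and Lum differed with unlike sign, as did Ogn and Aspn. Between ritonavir with DMSO and ritonavir alone Dcn and Lum shared a sign, at -1.47 and -1.45. Next to Ogn, Aspn, which encodes asporin, differed by -1.29 between ritonavir and ethanol, at 9.95 and 11.23. Omd and Ecm2 were not detected. Next to the undetected Fmod, Prelp, which encodes a matrix protein anchoring basement membranes to collagen, differed by -2.82, at 9.18 and 12.003. Kera and Epyc, beside Dcn and Lum, were not detected, nor was Chad.

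Of 6 detected small leucine-rich genes outside the members, Aspn and Prelp were 2-fold lower with ritonavir and none was higher, with a median of -0.31. Both were also at least 2-fold lower than ethanol on the DMSO array, at -1.05 for Aspn and -2.31 for Prelp. Between DMSO and ritonavir alone they differed by 0.23 and 0.51, where Ogn differed by -1.70. With t10,c12-CLA they differed from DMSO by -0.82 and -0.65, and from c9,t11-CLA by -1.004 and -1.15. None of the 6 was 2-fold from its control with c9,t11-CLA, where Prelp was highest at 0.50, or with tenofovir, where Nyx, a retinal member under the level on both arrays, differed by 0.45.

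**Figure D3:**
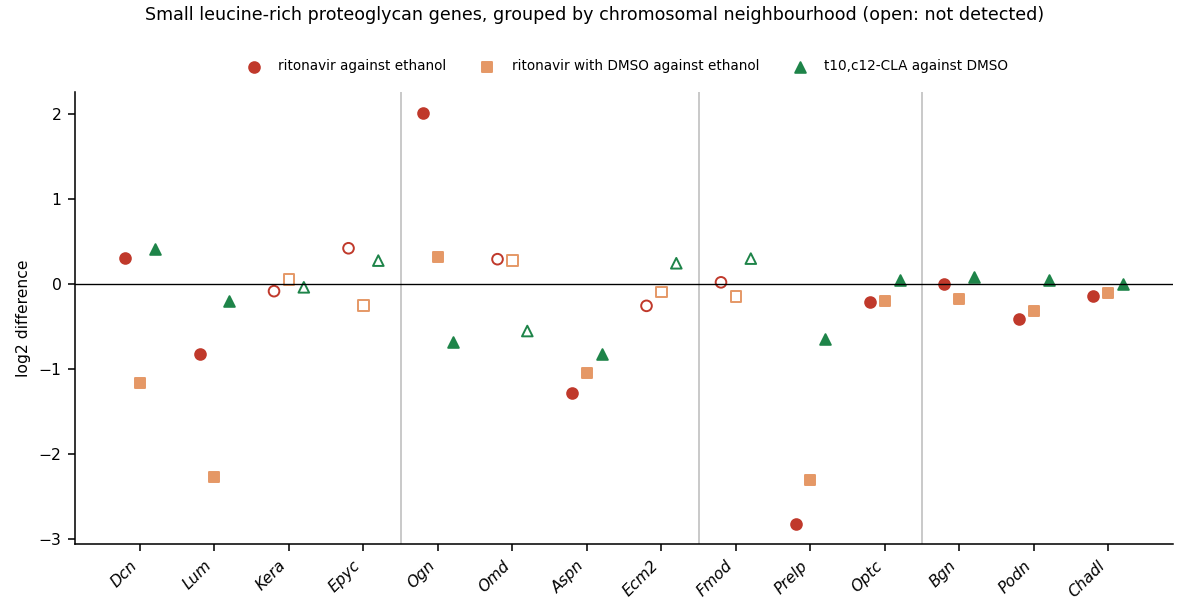
Log2 difference (y axis) of 14 small leucine-rich proteoglycan genes (x axis) in 3 comparisons, with grey lines between chromosomal clusters, Bgn, Podn and Chadl outside them, and open symbols for genes under the detection level on every array. Ogn lies at 2.01 and its neighbour Aspn at -1.29 for ritonavir against ethanol. Prelp is low against ethanol both for ritonavir alone and for ritonavir with DMSO.

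Vcan encodes versican, which carries chondroitin sulphate chains and binds hyaluronan. Its value (1427256_at) was 11.87 with ethanol, 12.57 with ritonavir and 12.03 with tenofovir, and 11.13 with DMSO, 11.25 with c9,t11-CLA and 11.89 with t10,c12-CLA. The array with DMSO was lowest and that of ritonavir alone highest. The array of ritonavir alone differed from ethanol by 0.70 and that of ritonavir with DMSO by -0.73, with opposite signs. The second experiment had no array without ritonavir, so both are set against the ethanol array of the first. The other 2 detected probe sets gave 0.24 and 0.58 for ritonavir alone and -1.11 and -0.59 with DMSO. With t10,c12-CLA versican was 0.75 above DMSO, rank 224 of 12385 from the top, and the other detected probe sets gave 0.81 and 0.75. With c9,t11-CLA it was 0.11 above DMSO, and 0.26 and 0.36 with the others, so the isomers differed by 0.64, 0.55 and 0.39 in turn. A further 5 Vcan probe sets stayed under the detection level.

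Of 13 detected hyalectan, link protein and hyaluronan genes none was 2-fold higher in any of the 7 comparisons. Hmmr, a hyaluronan receptor that is also a gene of dividing cells, was the 1 gene 2-fold lower with ritonavir than with ethanol, at -2.08, and with ritonavir and DMSO, at -1.41. Has2, a hyaluronan synthase, lay between 9.15 and 9.80 over the arrays. Cd44, the main hyaluronan receptor, was 0.66 higher with t10,c12-CLA than with DMSO, and Tnfaip6, which transfers protein chains to hyaluronan, differed by -0.90 there.

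Prg4 encodes lubricin, a mucin-like proteoglycan that lubricates joints. Its value (1449824_at) was 7.89 with ethanol, 5.71 with ritonavir and 7.66 with tenofovir, and 7.28 with DMSO, 7.27 with c9,t11-CLA and 9.91 with t10,c12-CLA. Ritonavir alone was the only array under the detection level and t10,c12-CLA the highest, with a range of 4.20. With values raised to the level the range was 3.36, against 3.50 for Fbln7. The ritonavir and ethanol difference of -2.18 became -1.34 with the ritonavir value raised to the level, so the gene was at least 2.53-fold lower. With DMSO it differed from ethanol by -0.62, and its 1.56 above ritonavir alone became 0.72 with raised values. With t10,c12-CLA it was 2.64 above DMSO, a 6.22-fold higher value at rank 3 of 12385, where 0.783% of genes were 2-fold higher. It was the only member 2-fold from DMSO, and none was 2-fold lower, against 1.05% of all genes. With c9,t11-CLA the gene differed from DMSO by 0.00, and the isomers by 2.64, rank 5 of 12385.

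The isomers were given at the same dose for the same time, and Prg4 was also the only member 2-fold apart between them, where 0.953% of genes were higher and 1.53% lower with t10,c12-CLA. The remaining members lay between -0.85 (Lum) and 0.64 (Vcan). With 1 array of each, no interval of these differences can be given, so members with small differences are not shown to act alike. On the t10,c12-CLA array the mature adipocyte markers had a median of -0.85 against DMSO, with 4 of 9 at least 2-fold lower. The detected preadipocyte and fibroblast markers had a median of 0.46. Cd68, a lysosomal gene listed as a macrophage marker, was 1.67 higher. The other detected macrophage markers, Cd14, Csf1r and Lyz2, differed by 0.43, 0.15 and -0.22. The part of these markers in the value of Prg4 was not tested. In bulk RNA, fewer cells of a type and less RNA per cell cannot be told apart.

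Mgp encodes matrix Gla protein, which needs vitamin K and restrains calcification. Its value (1448416_at) was 11.64 with ethanol, 13.14 with ritonavir and 11.77 with tenofovir, and 10.73 with DMSO, 10.66 with c9,t11-CLA and 10.61 with t10,c12-CLA. The arrays of the second experiment lay within 0.12 of each other and under every array of the first. Ritonavir alone was 1.501 above ethanol, a 2.83-fold higher value, while ritonavir with DMSO differed from it by -0.91. The gap between ritonavir with DMSO and ritonavir alone, -2.41 or 5.33-fold, ranked 7 of 12385 from the bottom.

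The vitamin K-dependent carboxylase gene Ggcx differed by 0.21 between ritonavir and ethanol and the epoxide reductase gene Vkorc1 by -0.12. Of 6 detected genes of the vitamin K cycle and of other Gla proteins none was 2-fold apart with ritonavir, the largest being Gas6, a secreted Gla protein, at 0.97. With DMSO, Gas6 and the matricellular gene Postn were 2-fold lower than with ritonavir alone, both at -1.31, and Postn differed from ethanol by -1.22. None of the 6 was 2-fold from DMSO with either isomer, and the quinone reductase gene Nqo1 differed most with t10,c12-CLA at 0.89.

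**Figure D4:**
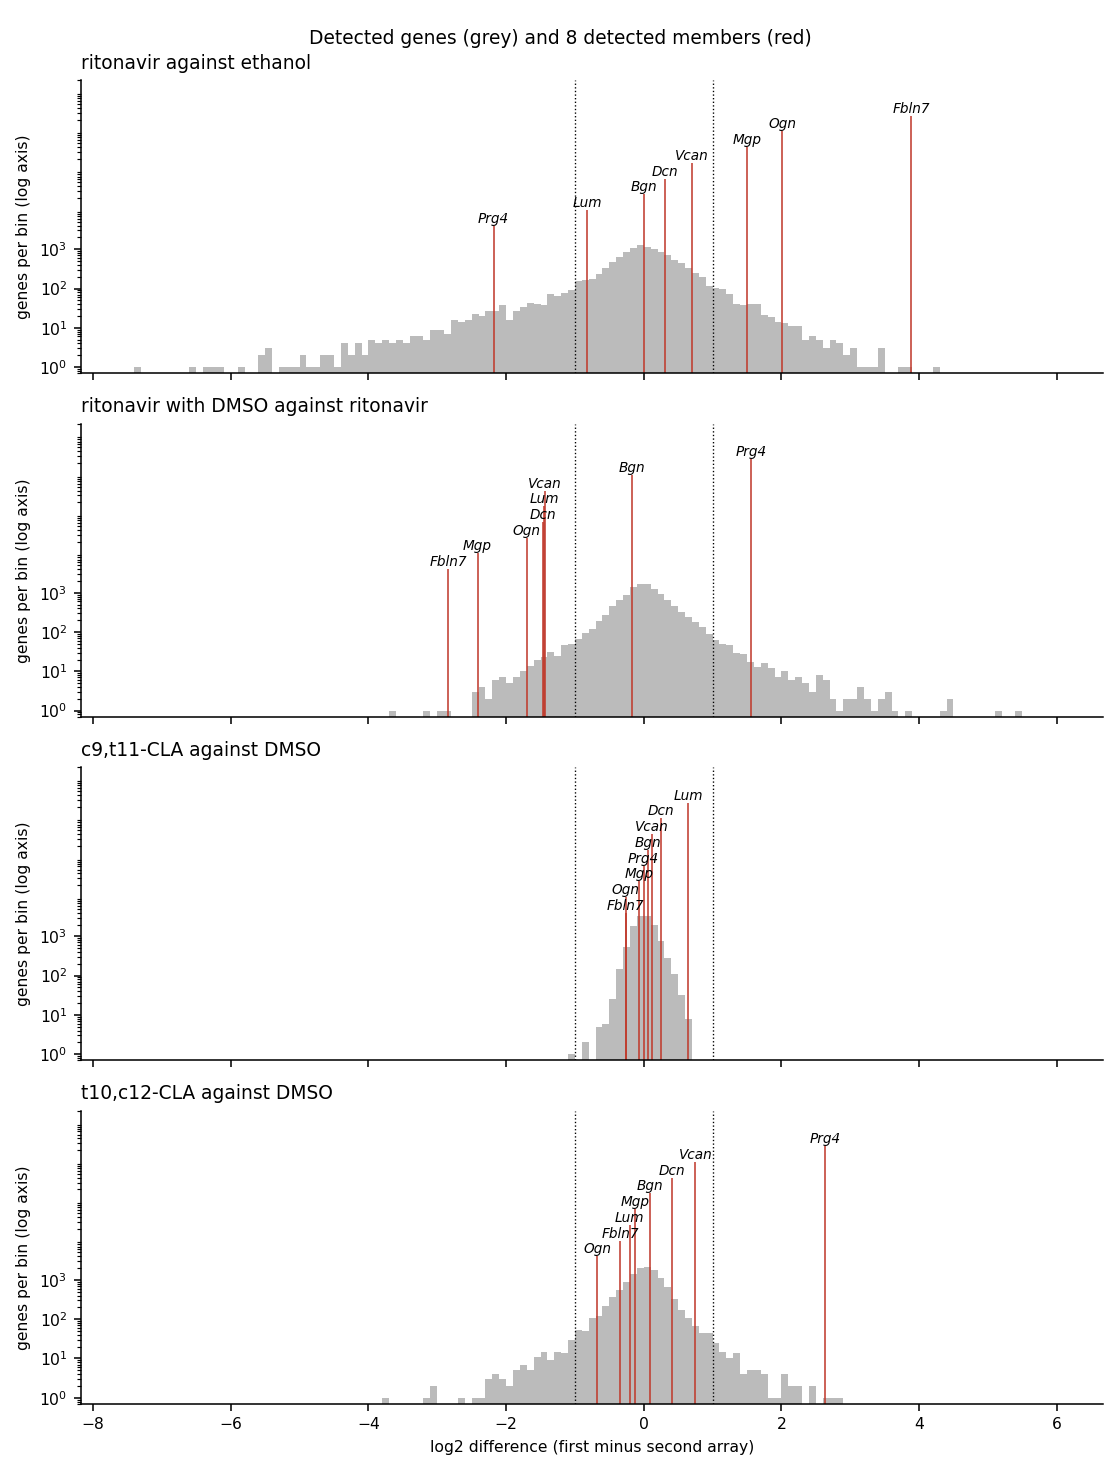
Number of detected genes (y axis, log scale) by log2 difference in bins of 0.1 (x axis) for 4 comparisons, with the 8 detected members as red lines, whose height only holds the name, and 2-fold as dotted lines. Fbln7 lies at the upper end for ritonavir against ethanol, Prg4 for t10,c12-CLA against DMSO and Lum for c9,t11-CLA against DMSO.

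Sugar chains are built by enzymes shared among proteoglycans, and these gave no common direction. Of 34 detected genes of glycosaminoglycan chain synthesis 2 were at least 2-fold higher with ritonavir than with ethanol and 5 lower, with a median of -0.17. The higher genes were Csgalnact1, which starts chondroitin chains, at 1.46 and Glce, an epimerase of heparan chains, at 1.12. Among the lower ones were the sulphotransferase gene Hs6st1 at -1.79 and Chst15 at -1.28. With DMSO, Csgalnact1 differed from ritonavir alone by -1.35 and Hs6st2 by -1.31, and Papss2, which makes the sulphate donor, from ethanol by -1.44. None of the 34 was 2-fold from DMSO with either isomer, where Ugdh, which makes a chain precursor, reached 0.61 with t10,c12-CLA.

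For keratan sulphate, the chain of lumican and fibromodulin, Chst1, a sulphotransferase, differed from ethanol by -3.12 with ritonavir and by -2.49 with ritonavir and DMSO, at 8.36 and 8.99 against 11.49 with ethanol. The galactosyltransferase gene B4galt4 was 1.05 higher with ritonavir, but lay under the level with ethanol and was not 2-fold higher with raised values. Among 13 detected heparan sulphate and other proteoglycans 1 was at least 2-fold higher with ritonavir, agrin (Agrn) at 1.05, and 1 lower, the basement membrane collagen Col18a1 at -1.71. Of these 13, 12 were lower with DMSO than with ritonavir alone, with a median of -0.39 against 0.01 for all genes. Only the syndecan gene Sdc3 was 2-fold lower there, at -1.14. Against ethanol 3 were 2-fold lower with DMSO, among them Col18a1 at -2.10 and Sdc3 at -1.08. All 13 were higher with c9,t11-CLA than with DMSO, none 2-fold, with a median of 0.17 against 0.01 for all genes. Among them Spock2 lay under the level on both of these arrays. With t10,c12-CLA 11 of 13 were higher, led by Sdc3 at 0.82, with a median of 0.28 against 0.02 for all genes. The same DMSO array enters these counts and those against ritonavir and ethanol, so they are not independent of each other.

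Marker lists differed between the same arrays. The 8 detected preadipocyte and fibroblast markers had a median of 0.52 between ritonavir and ethanol, with 3 at least 2-fold higher, and of -1.08 between ritonavir with DMSO and ritonavir alone, with 4 lower. Thy1, a fibroblast surface protein, differed by 1.67 and -2.12 in these comparisons, and Col1a1, a chain of type I collagen, by 0.89 and -2.20. Not all of the 8 were higher with ritonavir than with ethanol. While 6 lay above 0, 2 lay below, Pdgfra at -0.07 and Dlk1 at -0.11, and Col3a1 and Vim were at 0.02 and 0.15. With DMSO all 8 were lower than with ritonavir alone. The mean of the 9 named fibroblast markers was 11.22 with ethanol, 11.77 with ritonavir and 10.68 with DMSO, and that of the 9 named adipocyte markers 13.47, 10.23 and 12.85. Of 10 cartilage and tendon markers 5 were detected, Sox9, Col9a1, Col11a2 and Mkx on all 6 arrays and Comp on 1. Between ritonavir and ethanol Sox9 differed by 0.88, Col11a2 by 0.64, Comp by 0.40, Mkx by 0.09 and Col9a1 by -0.41. Col2a1, Matn1, Matn3, Scx and Tnmd were under the level on all arrays. The part of these differences in the members' values was not tested. DMSO was used only in the second experiment, so an effect of DMSO and a difference between experiments cannot be told apart.

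The genes most like each member in pattern were sought among 11794 other detected genes by the root mean square distance of mean-centred log2 values over the 6 arrays. Fbln7 had Tagln (0.36) and Actg2 (0.38) nearest, which encode the smooth muscle proteins transgelin and gamma actin, followed by Gbp8 (0.42). All of these peaked with ritonavir alone. With t10,c12-CLA the neighbours differed from DMSO by 0.76, 0.63 and 0.46 in turn, but Fbln7 by -0.34. Ogn was nearest to Porcn (0.26), Sned1 (0.27) and Cdon (0.28), and among members to Mgp (0.50) and Fbln7 (0.60). Dcn was nearest to Tpm2 (0.12), Adm (0.13) and Apod (0.13). Vcan was nearest to Tpm4, at 0.10 a tropomyosin gene like Tpm2, to Hs6st2, the heparan sulphotransferase gene above (0.10), and to Ank3 (0.12). The pair Dcn and Vcan, at 0.25, was the closest among the members.

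Mgp was nearest to Col1a1 (0.23), Dpep1 (0.26) and Fst (0.27), the last the gene of the activin inhibitor follistatin. Lum had no gene closer than Btg2 (0.32), Sema4g (0.41) and Galnt18 (0.41). Prg4 had the most distant neighbours, Angptl4 (0.69), Gprin3 (0.77) and Cpt1a (0.78), of which Angptl4 encodes an inhibitor of lipoprotein lipase and Cpt1a the enzyme that admits fatty acids to mitochondria. Angptl4 differed from DMSO by 1.13 with t10,c12-CLA and Cpt1a likewise by 1.13, less than the 2.64 of Prg4. Bgn was left out because its values spanned under 1. Of the 21 neighbour genes 12 had a promoter window in the table, and none of those held a CArG box; no neighbour of Fbln7 is among the 12, so Tagln and Actg2 were not searched. These likenesses rest on 6 arrays of 6 conditions.

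**Figure D5:**
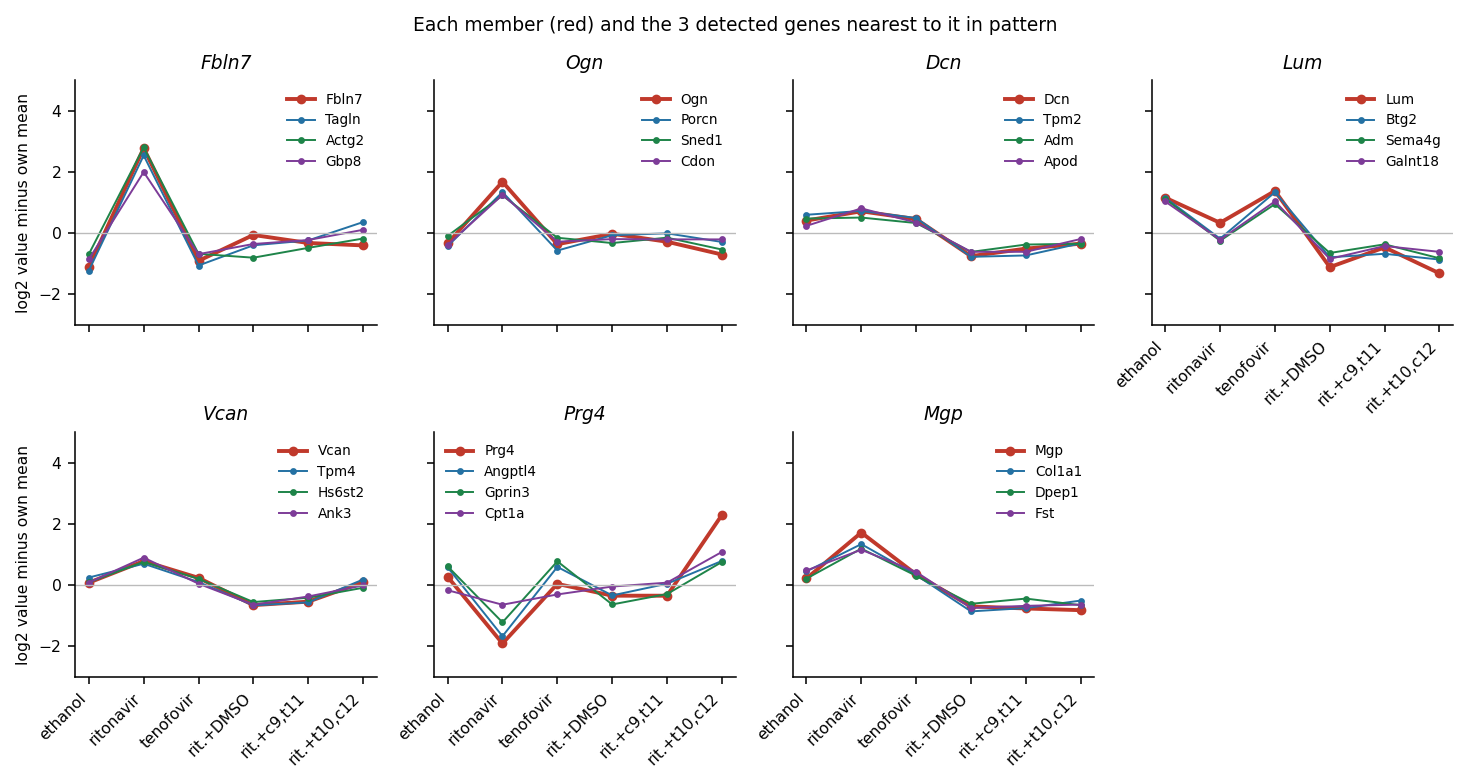
Log2 value minus the gene's own mean (y axis) on the 6 arrays (x axis) for 7 members in red and the 3 genes nearest to each in other colours; lines only join the values of 1 gene. Fbln7, Tagln and Actg2 all peak on the ritonavir array, and Prg4 on the t10,c12-CLA array lies above its 3 neighbours.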

How the data were processed

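Total RNA of 6 groups was hybridised to 1 Affymetrix mouse array each, after pooling of 4 replicate experiments, per the labels' protocols. The deposited log2 values came from RMA in Affymetrix Expression Console, per the submitters' processing notes; no version is stated there. RMA makes array distributions equal, so a shift shared by most genes would be removed. Of 45101 probe sets, 34958 had 1 symbol in the platform annotation, 932 had several and 9211 were not listed; 13 named control probe sets were left out. Symbols were looked up by gene identifier, and 157 of 168 listed symbols were named.

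Differences of log2 values between arrays were computed for 7 comparisons, with no test, since each group had 1 array. The members and lists were chosen with earlier results of these data known. Named genes are the members, per list and comparison up to 2 genes upward and 2 downward past 2-fold (else the largest), and the 3 nearest in pattern; Fbln2, Fbln5, Sdc3, Has2, Cd44, Tnfaip6, Ggcx, Vkorc1 and marker genes were named for their role or after their values were seen. The counting step was tested on simulated data with the levels of the ethanol array, for 12385 genes. Noise was set from the tenofovir and ethanol pair, at 0.113. There 100 of 100 genes changed 3-fold, 0 of 100 changed 1.5-fold and 0 of 12185 unchanged genes were counted. With noise this small beside the threshold, the outcome checks the counting only. It gives no rate of false calls for the arrays compared here. Alternatives covered the probe set, the detection level, normalization, the fold threshold and the arrays compared. Python 3.11.15, numpy 2.4.6, pandas 2.3.3, statsmodels 0.14.6 and matplotlib 3.10.9 were used.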

Additional observations from a re-analysis of the deposited data

Results flagged for a closer look

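Mgp and Vcan differed from ethanol in opposite directions on the 2 arrays of ritonavir without CLA, each by at least 1.5-fold. Mgp differed by 1.501 with ritonavir alone and by -0.91 with ritonavir and DMSO. Vcan differed by 0.70 and -0.73 with the probe set used, but by 0.33 and -0.32 with the mean of all its probe sets, which is under 1.5-fold, and by 0.24 and -1.11 with 1 other detected probe set. The ethanol array enters each of these values, every group had 1 array, and the difference between them was not tested.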

How the results depend on the processing

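Counts of members at least 2-fold apart were within 1.5 times the count reported under both other choices of probe set, under no detection filter and the level at the upper quartile of 8.77, with values raised to the detection level, after quantile normalization again and after removal of a lowess trend with span 0.3. With ritonavir against ethanol the count was 4, with 3 higher and 1 lower (Fbln7, Ogn, Mgp and Prg4). With the DMSO array in place of the ritonavir array it was 3, with 1 higher and 2 lower (Fbln7, Lum and Dcn). With the mean of both it was 4, with 2 higher and 2 lower. With tenofovir in place of ethanol it was 5, with 3 higher and 2 lower. A like total thus did not mean like genes or directions. At 3-fold the count was 3 in place of 7 for ritonavir with DMSO against ritonavir and 1 in place of 3 for ritonavir with DMSO against ethanol. At 1.5-fold it was 6 in place of 3 for the latter, 1 in place of 0 for c9,t11-CLA against DMSO, 3 in place of 1 for t10,c12-CLA against DMSO and 3 in place of 1 between the isomers; all genes past 1.5-fold in these 4 comparisons were 14.1%, 0.17%, 7.07% and 8.09%. A fold threshold moves a count by its own construction. Of 280 single differences recomputed, 265 moved by less than 0.113 and 15 by more, and none at least 2-fold changed sign. The mean of all probe sets, which adds dim ones, took Dcn from -1.47 to -0.96 and Vcan from -1.44 to -0.65 for ritonavir with DMSO against ritonavir. No paired analysis was possible because each group had 1 array.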
